A study of Rattus norvegicus with 15 samples.

Results

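The Hox genes of the rat were followed from cultured cardiac stem cells to beating colonies and to cardiomyocytes taken from the heart. Every row of the expression table whose symbol is Hoxa, Hoxb, Hoxc or Hoxd followed by a number was kept, which gave 40 rows with 36 symbols out of 26276 named rows. The A cluster has 13 rows, the B cluster 10, the C cluster 9 and the D cluster 8. The rule used names only, not measured values. Hoxa9 has 3 rows, Hoxa6 and Hoxa11 have 2 rows each, and 1 symbol stands in capitals in the table (HOXB3). RefSeq lists Hoxa9 as another name of Hoxa7 and Hoxa10 as another name of Hoxa11, so names within the A cluster are uncertain, and rows that share a name are told apart here by their Ensembl identifier.

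All libraries came from Wistar rats. CSC are cultured cardiac stem cells, with 3 libraries from 3 cultures of 1 clone, so their spread is that between cultures and not between clones or animals. iCM are beating colonies grown from such cells, with 3 libraries. nCM are cardiomyocytes isolated from hearts at postnatal day 1 to 2, and aCM are cardiomyocytes from hearts at 12 weeks of age, each with 3 libraries. The labels do not say how the iCM, nCM and aCM libraries relate to animals or cultures. A further clone each gave the libraries cCSC1, cCSC2 and cCSC3, and clone 4 is CSC replicate 1 under a second name. RNA was sequenced after removal of ribosomal RNA.

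Hox genes encode homeodomain transcription factors that give cells of the embryo a position along the head-to-tail axis. They sit in 4 clusters, and paralog numbers run from anterior (low) to posterior (high) in each. In the mouse heart, anterior Hox genes mark progenitors of the outflow tract and atria, and adult connective tissue cells of many organs keep the Hox genes of the body level at which they arose. Hox proteins bind DNA together with cofactors of the Pbx and Meis families, their expression is started by retinoic acid, Wnt signals and caudal genes, and it is then held on or off by trithorax and Polycomb proteins.

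Library totals ran from 20.7 M to 48.5 M counts, with the lowest values in aCM (20.7 M to 26.0 M). Levels are CPM, the counts of a gene relative to the TMM-scaled library total, and 3 counts correspond to 0.0582 to 0.166 CPM, a limit that covers counting error only. Transcript lengths were not used, so levels of different genes are not compared with each other, and sums over genes weigh long transcripts more. Fewer cells of a type and less RNA per cell cannot be told apart in such bulk samples.

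Hox transcripts were most abundant in CSC and were lower in all 3 beating or heart-derived groups. Summed over the 40 rows, the CSC libraries stood at 98.2, 101 and 92.8 CPM, a mean of 97.3 ± 4.14 (SD, n = 3). In iCM the sums were 39.5, 33.7 and 31.9 CPM (35.0 ± 3.97), which is 36.0% of the CSC mean. The sums in nCM were 15.6, 16.1 and 17.3 CPM (16.3 ± 0.858, or 16.8% of CSC), and those in aCM were 20.6, 18.7 and 15.7 CPM (18.3 ± 2.48, or 18.8%). Every iCM library lay below every CSC library and above every nCM and aCM library, while nCM and aCM overlapped.

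**Figure D1:**
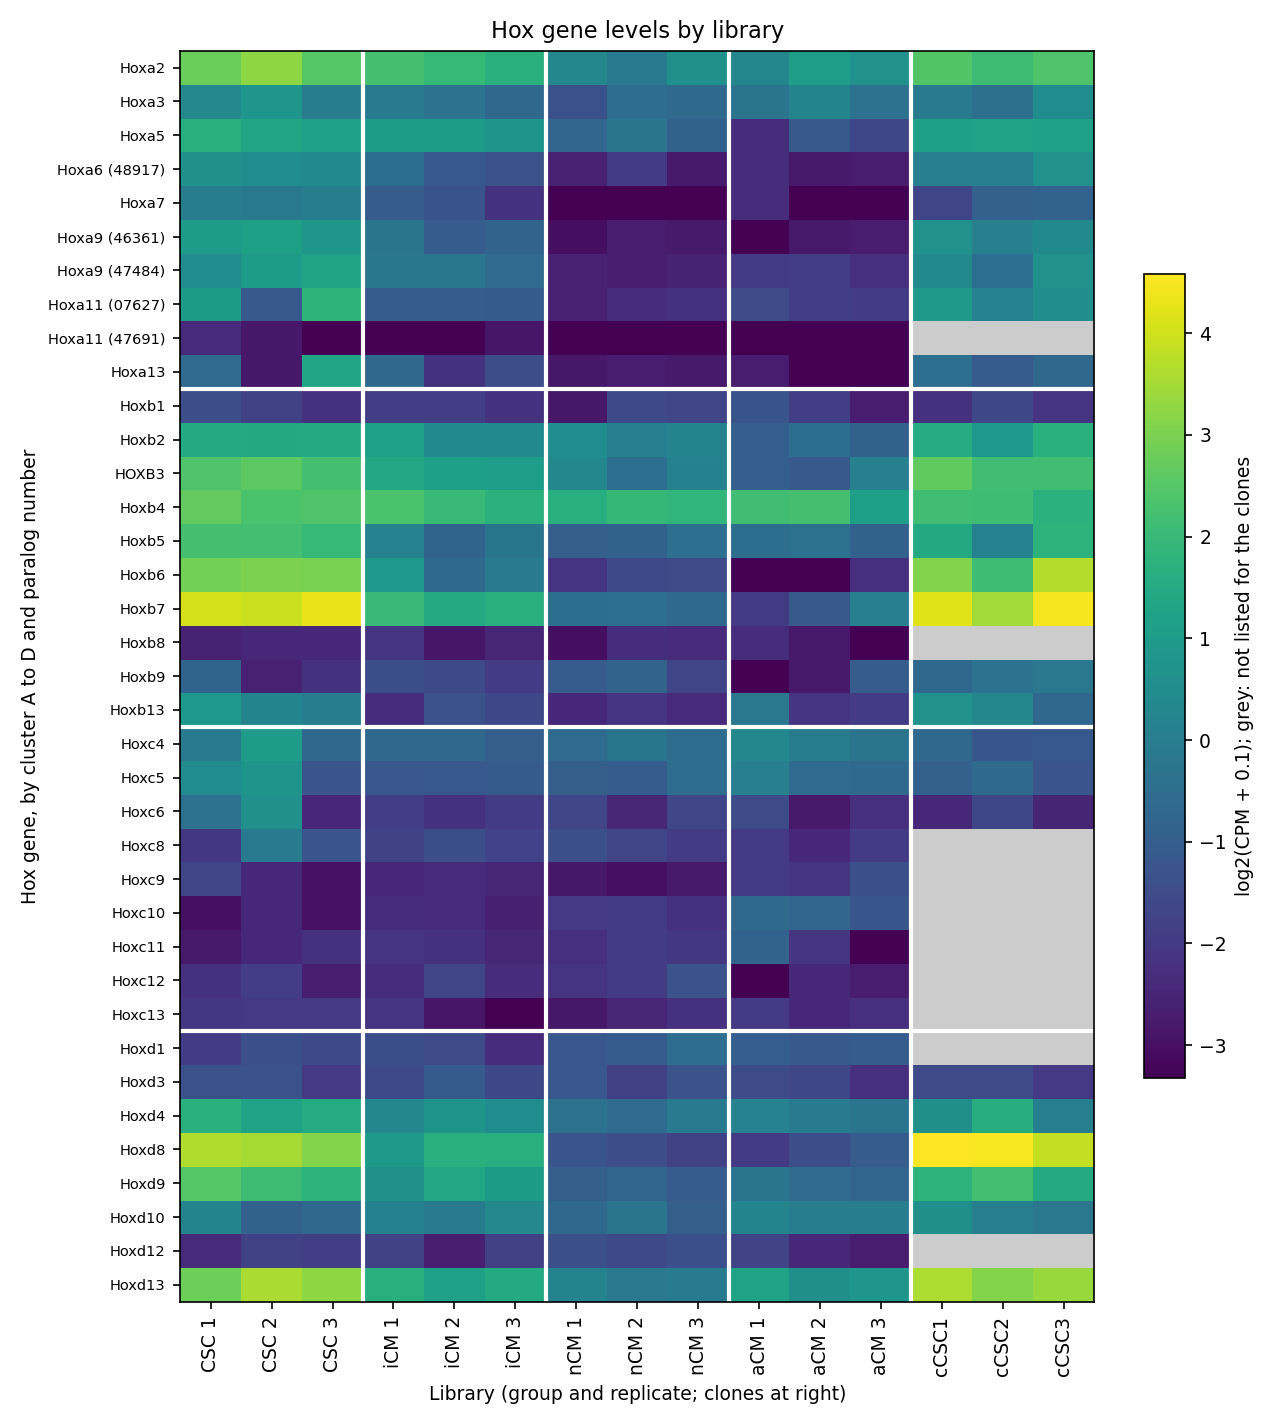
Level of the Hox rows with any count, all but 1, as log2(CPM + 0.1), rows by cluster and paralog number, columns by library, with the 3 other clones at right (1 library each, scaled to their own table's total; grey where the clone table lists no row). The rows from Hoxb5 to Hoxb7 and Hoxd8 to Hoxd9 run from bright in CSC to dark in nCM and aCM, with iCM between, while Hoxb4 differs less in shade between the groups.

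The lower sums were uneven along the axis. Paralog groups 5 to 9, which pattern the neck and trunk, held 57.2% ± 1.64 (SD, n = 3) of the summed Hox level in CSC and 41.7% ± 1.63 in iCM, against 25.2% ± 2.00 in nCM and 21.6% ± 5.49 in aCM. The anterior groups 1 to 4 held 27.6% ± 2.54 in CSC and 43.7% ± 2.68 in iCM, against 59.3% ± 2.90 in nCM and 55.3% ± 6.46 in aCM. Groups 10 to 13 held 15.2% ± 2.84 in CSC and 14.6% ± 1.75 in iCM, against 15.5% ± 0.953 in nCM and 23.1% ± 4.83 in aCM. The shares of groups 5 to 9 in CSC (55.8% to 59.0%) did not overlap with those of iCM (39.8% to 42.9%), nor these with those of nCM (23.2% to 27.1%) or aCM (18.3% to 27.9%). These shares are given without a test.

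By single paralog number, groups 6, 7 and 8 stood in nCM at 4.76%, 3.36% and 4.91% of the CSC mean. Group 4 kept 51.0% of the CSC mean in nCM and 59.5% in aCM. The other anterior groups were unlike each other. Group 1, at 0.962 CPM in CSC, stood at 99.3% in nCM and 101% in aCM. Groups 2 and 3 stood at 22.8% and 25.5% in nCM and at 20.7% and 23.9% in aCM. These lie near group 5 (19.2% in nCM and 18.9% in aCM). Group 10, which by the listed symbols is Hoxc10 and Hoxd10, stood at 0.724 ± 0.306 CPM in CSC and 1.11 ± 0.147 in iCM. It stood at 0.701 ± 0.165 in nCM and 1.42 ± 0.221 in aCM. As names within the A cluster are uncertain, an A row may belong to another paralog group than its symbol says. The paralog sums and shares follow the symbols.

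By cluster, the B genes summed to 44.5 ± 1.32 CPM in CSC and 13.6 ± 3.10 in iCM, against 7.50 ± 0.242 in nCM and 6.67 ± 0.839 in aCM. The D genes stood at 28.4 ± 3.06, 10.3 ± 0.939, 3.83 ± 0.143 and 5.19 ± 0.841 CPM in the same order, and the A genes at 20.6 ± 0.697, 9.42 ± 1.73, 2.88 ± 0.482 and 3.52 ± 0.703 CPM. For the C genes the CSC cultures themselves were spread (3.52, 6.36 and 1.66 CPM), against 1.70 ± 0.184 CPM in iCM, 2.10 ± 0.19 in nCM and 2.94 ± 0.871 in aCM. The CSC range of the C cluster overlapped with that of each other group, and that of the A, B and D clusters did not.

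**Figure D2:**
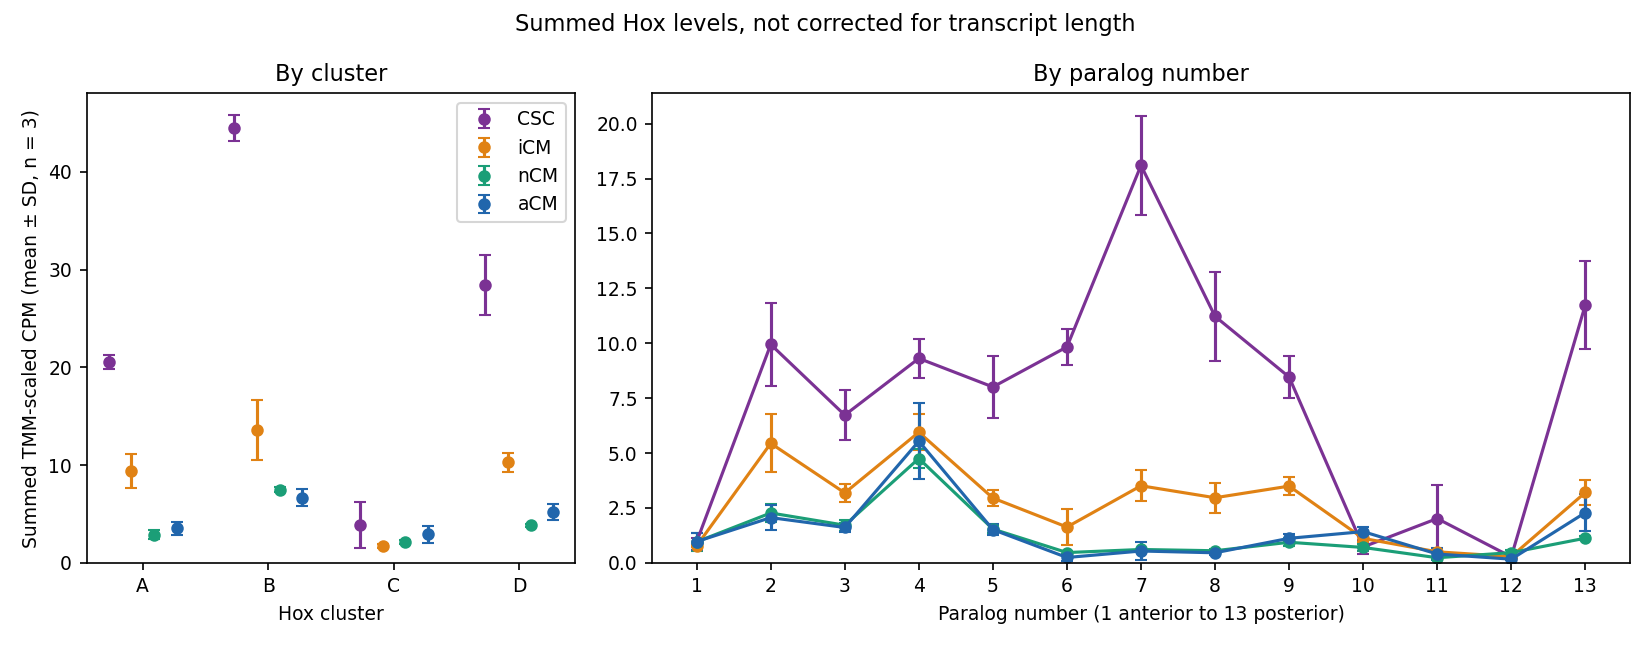
Summed CPM per Hox cluster (left) and per paralog number (right), mean ± SD of 3 libraries per group, not corrected for transcript length. CSC peak at paralog group 7 (18.1 CPM), where nCM and aCM are at 0.608 and 0.538 CPM, and the 4 groups lie close together at paralog groups 1, 10 and 12.

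Single genes were tested in 1 edgeR quasi-likelihood fit over the 12 libraries, and a gene was called at an adjusted p under 0.05 over 17242 genes. Of the 40 Hox rows 29 passed the low-count filter. Of these 12 were wholly past the filter's level of 0.262 CPM in all 4 groups, 7 in CSC and iCM alone, 2 in CSC alone and 2 in CSC, iCM and nCM. Hoxc10 passed it wholly in aCM alone, Hoxd1 in nCM and aCM, and 4 rows in no group. A row that passed through the one group where it is high had to differ, so the counts below, and the calls of Hoxa7 and Hoxb13 against CSC (the rows wholly past it in CSC alone) and of Hoxc10 against aCM, describe these rows and carry no weight beyond that. The same limit holds for calls between groups where a row was wholly past it and groups where it was not. These are calls of Hoxd1 in nCM or aCM against CSC or iCM. They also are calls of Hoxa6, Hoxa9, Hoxa11, Hoxb6 and Hoxd8 in nCM or aCM against CSC or iCM, and of Hoxa5 and Hoxb7 in aCM. Of the 4 rows wholly past it in no group, Hoxa13 reached it in no nCM or aCM library and Hoxc8 in no aCM library. Their calls against CSC there carry the same limit.

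In iCM against CSC 19 of the 29 Hox rows were lower and 0 were higher, where 31.2% of all genes tested were lower, 34.8% higher and 66.0% either. Without adjustment 19 rows had a p under 0.05, and DESeq2 also called 0 rows higher. The median log2 fold change of the Hox rows was -1.16, and that of all genes 0.08. In nCM against CSC 21 rows were lower and 2 higher (35.4% and 36.7% of all genes, 72.1% either), with a median of -2.46 against 0.09. In aCM against CSC 19 rows were lower and 1 higher (34.8% and 43.2% of all genes, 78.0% either), with a median of -2.38 against 0.29. Under 3 other library scalings the lower rows numbered 19 to 20 in iCM, 19 to 22 in nCM and 20 to 21 in aCM. These 3 comparisons share the CSC libraries.

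**Figure D3:**
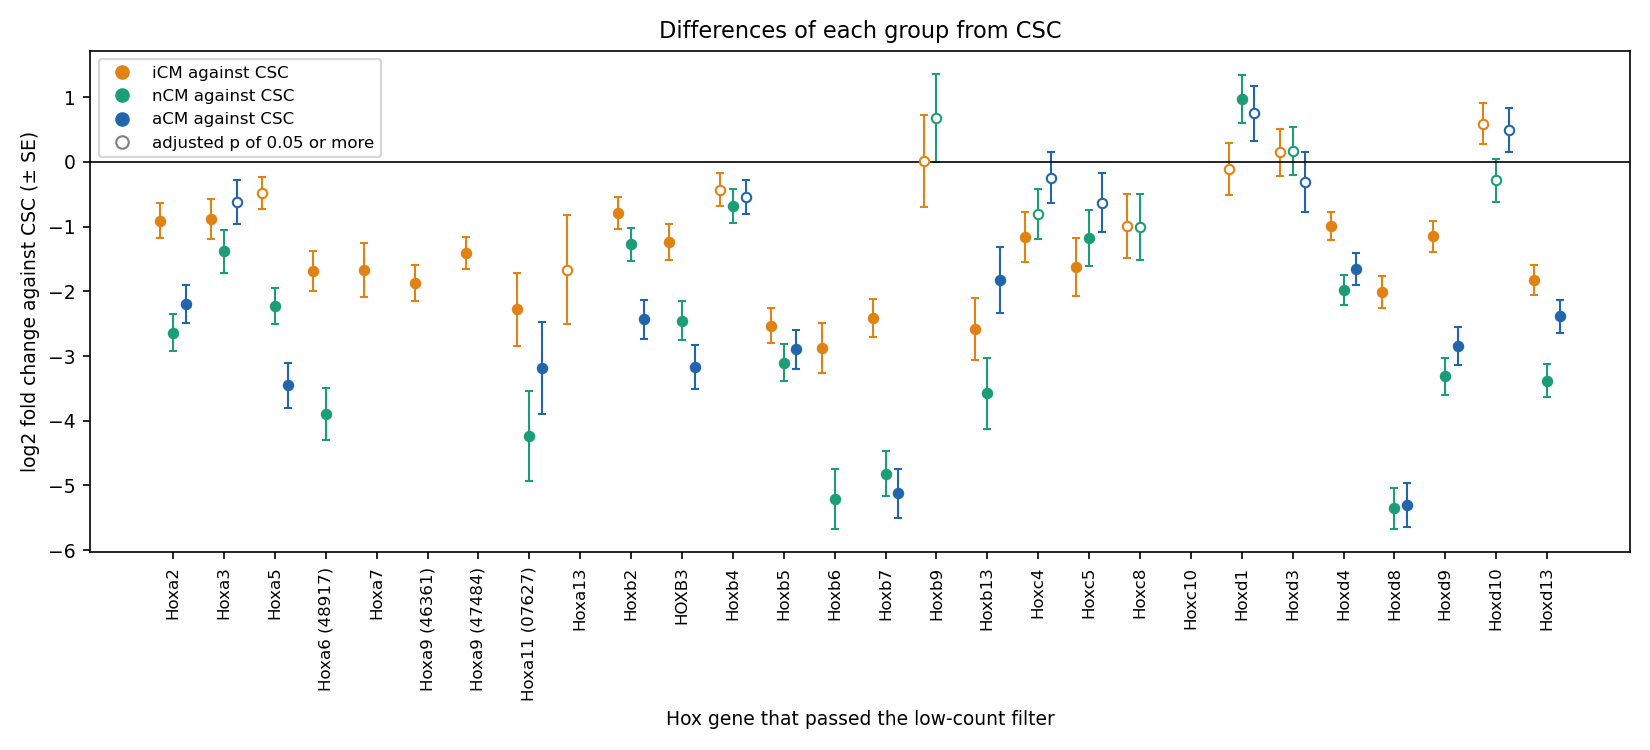
Log2 fold change ± SE of the tested Hox rows, all but 1, in iCM, nCM and aCM against CSC. Filled points were called at an adjusted p under 0.05 and open points were not, and a comparison with 10 or fewer counts in either group is left out. Most points lie below 0, with Hoxd8 (-5.35 in nCM, -5.30 in aCM) among the lowest, and Hoxb4 and Hoxd10 near 0.

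Among the anterior genes, Hoxa2, which patterns the hindbrain and its neural crest, stood at 6.87, 9.35 and 5.50 CPM in CSC and 4.70, 3.79 and 3.12 in iCM, against 1.16, 0.847 and 1.47 in nCM and 1.14, 2.06 and 1.50 in aCM. The CSC libraries lay above all others and the iCM libraries above both kinds of cardiomyocytes. Its log2 fold change against CSC was -0.91 ± 0.26 (SE) in iCM, -2.64 ± 0.29 in nCM and -2.20 ± 0.29 in aCM (edgeR adjusted p = 0.00814, 2.24e-06 and 1.2e-05).

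The gene listed as HOXB3, a hindbrain and pharyngeal patterning gene, was at 5.19, 5.93 and 4.53 CPM in CSC and 2.51, 2.12 and 2.02 in iCM, against 1.18, 0.635 and 1.02 in nCM and 0.414, 0.358 and 0.997 in aCM. Only the nCM and aCM values overlapped. HOXB3 fell in all 3 groups (log2 fold changes of -1.24 ± 0.28, -2.46 ± 0.30 and -3.17 ± 0.34 in iCM, nCM and aCM).

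Its neighbour Hoxb2 was at 2.75, 2.65 and 2.72 CPM in CSC and 2.21, 1.26 and 1.24 in iCM, against 1.33, 0.953 and 1.06 in nCM and 0.414, 0.627 and 0.443 in aCM. CSC lay above all other groups, and iCM overlapped with nCM. It fell by 0.78 ± 0.25 (log2) in iCM, but this call was lost without iCM replicate 2 or 3 (-0.65 and -0.64, edgeR adjusted p = 0.0642 and 0.0648). Against CSC it fell by 1.27 ± 0.25 in nCM and by 2.43 ± 0.30 in aCM. The level of Hoxb2 was lower in aCM than in nCM (log2 -1.16 ± 0.31, adjusted p = 0.00570), with no overlap.

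Hoxb4, known for expanding blood stem cells in culture, was at 6.29, 4.99 and 5.15 CPM in CSC and 5.02, 3.90 and 3.30 in iCM, against 3.02, 3.70 and 3.55 in nCM and 4.40, 4.70 and 2.11 in aCM. The iCM values overlapped with those of every other group. Its log2 fold change of -0.68 ± 0.26 in nCM passed the test (adjusted p = 0.0308), but not without CSC replicate 1 (-0.57, adjusted p = 0.0941) or without any 1 of the nCM libraries (-0.60, -0.73 and -0.71, adjusted p = 0.0956, 0.0509 and 0.0575). The nCM call was also lost with library totals (-0.52, adjusted p = 0.102) and with the stricter filter (-0.60, adjusted p = 0.0549). The values of -0.43 ± 0.26 in iCM and -0.55 ± 0.27 in aCM did not pass (adjusted p = 0.16 and 0.0761). DESeq2 called both (-0.56 and -0.70, adjusted p = 0.0386 and 0.0102), and edgeR called the aCM value without aCM replicate 2 (-0.75, adjusted p = 0.0372). The aCM value also passed with RLE scaling, library totals, the authors' factors and no filter (-0.70, -0.73, -0.77 and -0.61, adjusted p = 0.0242, 0.0289, 0.0139 and 0.0479).

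Hoxd4 was at 3.13, 2.28 and 2.81 CPM in CSC and 1.17, 1.61 and 1.35 in iCM, against 0.664, 0.582 and 0.827 in nCM and 1.04, 0.851 and 0.720 in aCM. Hoxd4 fell in all 3 groups (log2 fold changes of -0.99 ± 0.22, -1.98 ± 0.23 and -1.65 ± 0.25 in iCM, nCM and aCM), with the iCM libraries between CSC and the cardiomyocytes. Hoxa3, needed for the thymus and parathyroid in the mouse, was at 1.22, 1.66 and 0.917 CPM in CSC and 0.851, 0.699 and 0.530 in iCM, against 0.30, 0.609 and 0.567 in nCM and 0.725, 1.07 and 0.665 in aCM. It fell by 1.38 ± 0.33 in nCM and by 0.88 ± 0.31 in iCM, while the aCM value of -0.62 ± 0.34 did not pass (adjusted p = 0.107) and the aCM range overlapped with that of CSC. The iCM call was lost without CSC replicate 2 (-0.63, adjusted p = 0.119) and without iCM replicate 2 or 3 (-0.88 and -0.72, adjusted p = 0.0581 and 0.0963).

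Hoxd3 and Hoxb1 were low in every library. Hoxd3 ranged from 0.148 to 0.299 CPM in CSC, 0.224 to 0.369 in iCM, 0.185 to 0.343 in nCM and 0.111 to 0.259 in aCM, and passed in none of the 6 comparisons. Hoxb1, which takes part in outflow tract formation in the mouse, was not tested.

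Hoxb5, Hoxb6 and Hoxb7, central genes of the B cluster, were called lower in every comparison with CSC. Hoxb7 stood at 16.5, 15.4 and 19.7 CPM in CSC and 3.93, 2.74 and 3.04 in iCM, against 0.621, 0.635 and 0.567 in nCM and 0.155, 0.358 and 0.997 in aCM. The CSC libraries lay above all iCM libraries and these above all cardiomyocyte libraries, while the aCM libraries were spread on both sides of nCM. Hoxb7 fell in all 3 groups (log2 fold changes of -2.41 ± 0.30, -4.82 ± 0.35 and -5.12 ± 0.38 in iCM, nCM and aCM, adjusted p = 9.21e-06, 4e-08 and 3.31e-08).

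Hoxb6 was at 7.39, 7.98 and 7.87 CPM in CSC and 1.77, 0.544 and 0.877 in iCM, against 0.128, 0.238 and 0.260 in nCM and 0, 0 and 0.111 in aCM. No pair of groups overlapped, and the aCM value rested on 2 counts in all. The log2 fold change was -2.87 ± 0.39 in iCM and -5.21 ± 0.47 in nCM. For aCM the ratio of counts gave a level 231-fold lower than in CSC, with a counting interval of 63.9 to 1913.

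Hoxb5, which acts in lung and enteric nerve development in the mouse, was at 4.67, 4.57 and 3.84 CPM in CSC and 1.04, 0.485 and 0.734 in iCM, against 0.428, 0.45 and 0.638 in nCM and 0.621, 0.672 and 0.443 in aCM. Hoxb5 fell in all 3 groups (log2 fold changes of -2.53 ± 0.27, -3.10 ± 0.29 and -2.90 ± 0.30 in iCM, nCM and aCM). Its iCM values overlapped with those of nCM and aCM, and it passed in neither comparison of iCM with cardiomyocytes (0.57 ± 0.30 and 0.36 ± 0.32).

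**Figure D4:**
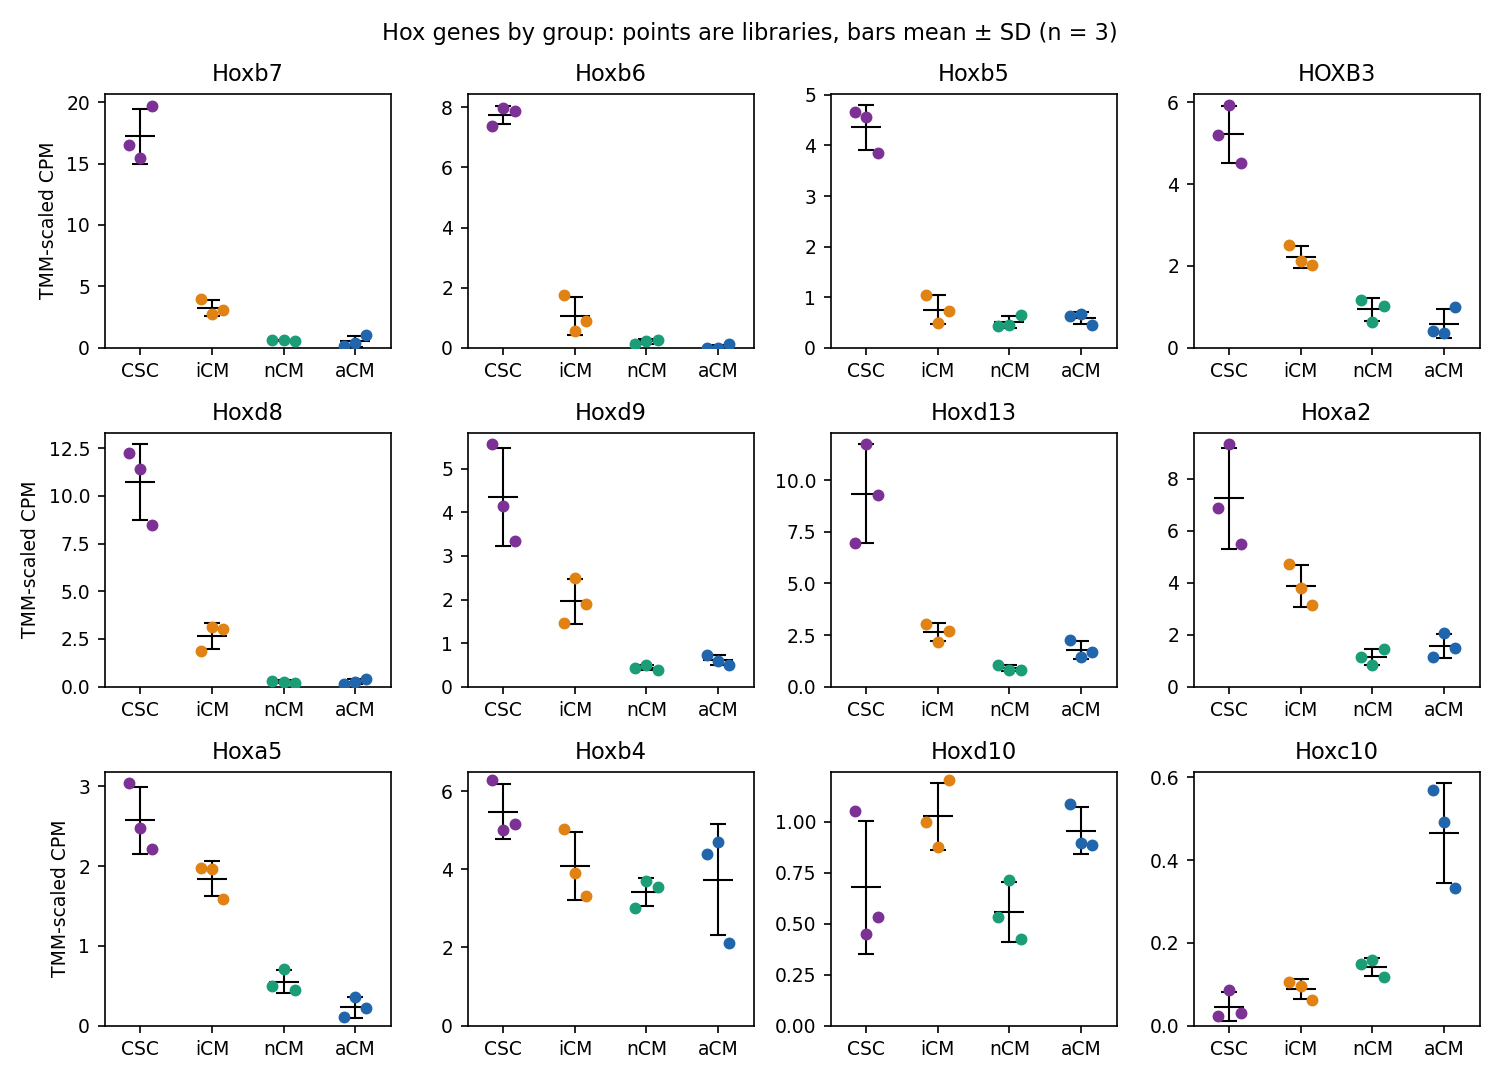
CPM of 12 Hox genes in the 3 libraries of each group (points), with the mean and SD (bars). Hoxb7, Hoxb6 and Hoxd8 step down from CSC to iCM and again to nCM and aCM, Hoxb5 overlaps between iCM, nCM and aCM, Hoxb4 and Hoxd10 in iCM overlap with CSC, and Hoxc10 is highest in aCM.

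In the A cluster, Hoxa5, a regulator of trachea and lung formation in the mouse, was at 3.04, 2.48 and 2.22 CPM in CSC and 1.98, 1.96 and 1.59 in iCM, against 0.492, 0.714 and 0.449 in nCM and 0.104, 0.358 and 0.222 in aCM. No pair of groups overlapped. The iCM value did not pass (log2 -0.48 ± 0.25, adjusted p = 0.105), although it did with RLE scaling, with the authors' library factors, in a fit of the 2 groups alone and in DESeq2 (-0.62, adjusted p = 0.0274). It fell by 2.23 ± 0.28 in nCM and by 3.45 ± 0.35 in aCM. The level in aCM was below that in nCM (log2 -1.22 ± 0.39, adjusted p = 0.0146), but not without aCM replicate 1 (-0.90, adjusted p = 0.0624).

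Hoxa9, a blood stem cell gene that is also known from leukaemia, has 2 rows with counts. The row ENSRNOG00000046361 was at 1.91, 2.13 and 1.72 CPM in CSC and 0.723, 0.388 and 0.469 in iCM, against 0.0214, 0.0529 and 0.0473 in nCM and 0, 0.0448 and 0.0554 in aCM. The row ENSRNOG00000047484 was at 1.29, 1.94 and 2.34 CPM in CSC and 0.766, 0.757 and 0.571 in iCM, against 0.0642, 0.0529 and 0.0709 in nCM and 0.155, 0.179 and 0.111 in aCM. Both kept CSC, iCM and the cardiomyocytes apart, and in iCM they fell by 1.87 ± 0.28 and 1.40 ± 0.25 (log2). The nCM levels rested on 5 and 8 counts, which put them 49.3-fold (counting interval 20.8 to 153) and 29.0-fold (14.5 to 68.0) below CSC.

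The Hoxa6 row ENSRNOG00000048917 was at 1.46, 1.32 and 1.24 CPM in CSC and 0.617, 0.349 and 0.286 in iCM, against 0.0642, 0.159 and 0.0473 in nCM and 0.104, 0.0448 and 0.0554 in aCM. It fell by 1.68 ± 0.31 (log2) in iCM and by 3.89 ± 0.40 in nCM. CSC, iCM and the cardiomyocytes did not overlap. Hoxa7 ranged from 0.811 to 0.909 CPM in CSC and from 0.122 to 0.383 in iCM, and all 3 nCM libraries were at 0 counts. Its nCM level was at least 12.2-fold lower than in CSC, with the limit set at 3 counts per library.

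The D cluster holds neighbours with unlike values, and the promoters of 4 of them are shown for that reason. Each is the stretch of 250 bases before the gene's start in RefSeq (rat GRCr8, chromosome 3, plus strand, 5′ to 3′), with matches to searched motifs in capitals. Of the 36 Hox symbols 17 had a promoter in that table.
Hoxd13 (chr3:79977827-79978076): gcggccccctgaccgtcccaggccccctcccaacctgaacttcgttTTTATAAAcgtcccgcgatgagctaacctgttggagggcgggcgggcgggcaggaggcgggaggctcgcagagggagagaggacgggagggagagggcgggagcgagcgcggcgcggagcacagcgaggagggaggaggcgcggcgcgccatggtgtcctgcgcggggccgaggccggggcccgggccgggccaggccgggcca
Hoxd10 (chr3:80001697-80001946): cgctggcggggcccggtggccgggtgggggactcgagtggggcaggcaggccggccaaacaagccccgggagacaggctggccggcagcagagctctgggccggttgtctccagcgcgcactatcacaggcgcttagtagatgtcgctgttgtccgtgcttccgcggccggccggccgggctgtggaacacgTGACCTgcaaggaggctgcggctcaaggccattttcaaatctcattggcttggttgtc
Hoxd9 (chr3:80007756-80008005): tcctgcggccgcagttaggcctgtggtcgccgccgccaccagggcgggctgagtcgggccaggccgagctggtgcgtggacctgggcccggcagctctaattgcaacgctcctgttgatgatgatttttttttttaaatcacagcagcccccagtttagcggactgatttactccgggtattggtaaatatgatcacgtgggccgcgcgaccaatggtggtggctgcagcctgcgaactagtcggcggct
Hoxd8 (chr3:80014973-80015222): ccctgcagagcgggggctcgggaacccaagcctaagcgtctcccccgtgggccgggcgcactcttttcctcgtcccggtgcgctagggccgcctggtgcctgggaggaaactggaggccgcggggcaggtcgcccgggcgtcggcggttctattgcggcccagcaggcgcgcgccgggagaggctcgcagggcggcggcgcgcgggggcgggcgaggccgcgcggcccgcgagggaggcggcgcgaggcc

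On both strands, the motifs searched were TTTATA and TTTATG (letters bound by posterior Hox and caudal proteins), AGGTCA (the core of retinoic acid receptor sites) and TGATNNAT (a Pbx and Hox joint motif). TTTATA, whose reverse TATAAA is also the core of a TATA box, was in the Hoxd13 window and in 12.9% of 33469 rat promoters of that length. AGGTCA was in the Hoxd10 window and in 14.1% of all promoters. TTTATG was in 11.4% and TGATNNAT in 7.96% of all promoters, and neither was in these 4 windows. The Hoxd8 and Hoxd9 windows held none of the 4. The 4 windows had 30, 21, 20 and 38 CpG dinucleotides in the order shown, against a median of 5 over all promoters and 18 over the 17 Hox promoters.

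Hoxd8, a trunk gene, was at 12.3, 11.4 and 8.46 CPM in CSC and 1.85, 3.11 and 3.02 in iCM, against 0.321, 0.265 and 0.189 in nCM and 0.155, 0.269 and 0.388 in aCM. CSC lay above iCM and iCM above both kinds of cardiomyocytes in every library. Hoxd8 fell in all 3 groups (log2 fold changes of -2.01 ± 0.25, -5.35 ± 0.32 and -5.30 ± 0.35 in iCM, nCM and aCM, adjusted p = 1.02e-05, 5.61e-09 and 8.42e-09).

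Hoxd9 was at 5.57, 4.14 and 3.34 CPM in CSC and 1.47, 2.50 and 1.90 in iCM, against 0.428, 0.503 and 0.378 in nCM and 0.725, 0.582 and 0.499 in aCM. Hoxd9 fell in all 3 groups (log2 fold changes of -1.15 ± 0.25, -3.31 ± 0.28 and -2.85 ± 0.30 in iCM, nCM and aCM), again with the iCM libraries between the others.

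Hoxd13, which shapes digits and the urogenital tract, was at 6.96, 11.8 and 9.29 CPM in CSC and 3.02, 2.17 and 2.71 in iCM, against 1.05, 0.794 and 0.827 in nCM and 2.28, 1.43 and 1.66 in aCM. Hoxd13 fell in all 3 groups (log2 fold changes of -1.82 ± 0.24, -3.38 ± 0.26 and -2.38 ± 0.25 in iCM, nCM and aCM). The aCM libraries lay above the nCM libraries (log2 1.00 ± 0.27, adjusted p = 0.00581) and overlapped with iCM.

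Between these genes, Hoxd10, a limb and spinal cord gene, was at 1.05, 0.448 and 0.532 CPM in CSC and 1.00, 0.874 and 1.20 in iCM, against 0.535, 0.714 and 0.426 in nCM and 1.09, 0.895 and 0.886 in aCM. CSC overlapped with each of the other groups. The log2 fold change was 0.59 ± 0.31 in iCM, -0.29 ± 0.33 in nCM and 0.49 ± 0.34 in aCM (adjusted p = 0.112, 0.451 and 0.201). CSC replicate 1 decided this for iCM and aCM: without it the values were 1.07 and 0.97 and passed (adjusted p = 0.00642 and 0.0135).

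Among other posterior genes, Hoxb13, which in the mouse heart acts with Meis1 on the withdrawal of cardiomyocytes from the cell cycle, was at 1.77, 1.09 and 0.917 CPM in CSC and 0.106, 0.291 and 0.224 in iCM, against 0.0856, 0.132 and 0.0946 in nCM and 0.777, 0.134 and 0.166 in aCM. The CSC libraries were above all others. Hoxb13 fell in all 3 groups (log2 fold changes of -2.58 ± 0.48, -3.58 ± 0.55 and -1.82 ± 0.52 in iCM, nCM and aCM). Without aCM replicate 1 the aCM value was -3.06. The level in aCM passed as higher than in nCM (1.75 ± 0.69, adjusted p = 0.0417), but without aCM replicate 1 the value was 0.50 (adjusted p = 0.574). It was also lost without any 1 nCM library (1.62, 1.92 and 1.70, adjusted p = 0.102, 0.0594 and 0.0891) and with library totals (1.42, adjusted p = 0.0951).

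The Hoxa11 row ENSRNOG00000007627, a gene of the limb, kidney and uterus, was at 1.87, 0.363 and 3.43 CPM in CSC and 0.383, 0.388 and 0.367 in iCM, against 0.0642, 0.106 and 0.118 in nCM and 0.259, 0.179 and 0.166 in aCM. CSC replicate 2 lay below all iCM libraries. Hoxa11 fell in all 3 groups (log2 fold changes of -2.28 ± 0.56, -4.24 ± 0.70 and -3.19 ± 0.71 in iCM, nCM and aCM), and without CSC replicate 3 the values were -1.53, -3.49 and -2.44. Hoxa13, its neighbour with a role in digits and the urogenital tract, was at 0.574, 0.0427 and 2.40 CPM in CSC and 0.532, 0.116 and 0.265 in iCM, against 0.0428, 0.0529 and 0.0473 in nCM and 0.0518, 0 and 0 in aCM. The CSC cultures enclosed the iCM libraries, and culture 2 lay below every nCM library and below the highest aCM library. These Hoxa13 levels rested on 24, 2 and 81 counts in CSC, 2, 2 and 2 in nCM and 1, 0 and 0 in aCM, so that most CSC counts came from culture 3. Hoxa13 was called lower in nCM and aCM (adjusted p = 0.00469 and 0.00807), also without culture 3 (adjusted p = 0.0346 and 0.0301), but no fold is given for so few counts. Only CSC and iCM libraries of Hoxa13 reached the filter's level, so these calls, with or without culture 3, only describe levels.

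A pair of genes went the other way. Hoxc10, a hindlimb and motor neuron gene, was at 0.0239, 0.0853 and 0.0296 CPM in CSC and 0.106, 0.0971 and 0.0612 in iCM, against 0.15, 0.159 and 0.118 in nCM and 0.57, 0.492 and 0.332 in aCM. The aCM libraries were above all others. These Hoxc10 levels rested on 1, 4 and 1 counts in CSC and 11, 11 and 6 in aCM. Hoxc10 entered the test through aCM alone, so its differences from aCM are given as these levels. In nCM it passed as higher than in CSC (log2 1.48 ± 0.51, adjusted p = 0.0229), a call lost without CSC replicate 1 or 3 or nCM replicate 1 (adjusted p = 0.104, 0.0684 and 0.0516) and in DESeq2 (adjusted p = 0.110).

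Hoxd1, the other gene, was at 0.167, 0.277 and 0.237 CPM in CSC and 0.277, 0.252 and 0.102 in iCM, against 0.343, 0.397 and 0.615 in nCM and 0.414, 0.358 and 0.388 in aCM. The nCM and aCM libraries were above all CSC and iCM libraries. Only these higher groups were wholly past the filter's level, so the calls of Hoxd1 against CSC and iCM describe these levels. Its log2 fold change of 0.97 ± 0.37 in nCM against CSC passed (adjusted p = 0.0306), but not without CSC replicate 1 or 3 or nCM replicate 3 (0.79, 1.00 and 0.68, adjusted p = 0.105, 0.0561 and 0.139) nor in DESeq2 (adjusted p = 0.125) or with the authors' factors (0.82, adjusted p = 0.0589). The aCM value of 0.75 ± 0.43 did not pass (adjusted p = 0.122).

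Beating colonies were then compared with the cardiomyocytes of the heart. In iCM against nCM 13 of 29 rows were higher and 1 lower, where 18.3% of all genes tested were higher, 13.1% lower and 31.4% either. The median of the Hox rows was 1.00 and that of all genes -0.02 (log2). Hoxd8 was higher by 3.34 ± 0.31, Hoxb7 by 2.41 ± 0.33, Hoxd9 by 2.16 ± 0.28, Hoxa5 by 1.74 ± 0.28 and Hoxd13 by 1.56 ± 0.25. For the Hoxa9 rows the ratio of counts was 13.2 (counting interval 5.43 to 41.9) and 11.1 (counting interval 5.41 to 26.3). Hoxd8 and the Hoxa9 rows were wholly past the filter's level in CSC and iCM alone, so their differences from nCM only describe levels. The row called lower was Hoxd1 (-1.09 ± 0.36, adjusted p = 0.0374), which was not called without iCM replicate 2 or 3 or nCM replicate 2 or 3 (-1.25, -0.76, -1.17 and -0.80, adjusted p = 0.0630, 0.138, 0.0594 and 0.15), nor in the 2 groups alone or in DESeq2 (adjusted p = 0.0605 and 0.0811).

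In iCM against aCM 13 rows were higher and 1 lower, where 33.0% of all genes were higher, 30.1% lower and 63.1% either, with medians of 0.72 and 0.00 (log2). Hoxa5 was higher by 2.97 ± 0.35, Hoxd8 by 3.29 ± 0.35, Hoxb7 by 2.71 ± 0.38 and HOXB3 by 1.93 ± 0.35. The row called lower was Hoxc10. Hoxd4 passed by 0.66 ± 0.25 (adjusted p = 0.0339) but was lost without iCM replicate 2 or 3 or aCM replicate 2 or 3 (0.53, 0.68, 0.66 and 0.57) and in the 2 groups alone (0.61, adjusted p = 0.0557). Hoxa7 was lost without aCM replicate 2 (adjusted p = 0.0535). With library totals as the only scaling, the all-gene calls were 7334 higher and 3746 lower in place of 5698 and 5190.

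Between adult and neonatal cardiomyocytes 3 Hox rows were higher in aCM and 3 lower, where 30.8% of all genes were higher, 31.9% lower and 62.7% either, with medians of 0.21 and -0.01 (log2). The higher rows were Hoxd13, Hoxb13 and Hoxc10 and the lower rows Hoxa5, Hoxb2 and Hoxb6. Hoxb6 rested on 2 aCM counts against 26 in nCM, a ratio of 6.12 (counting interval 1.53 to 53.2). Its call was lost without nCM replicate 2 or 3 or aCM replicate 1 or 2 (adjusted p = 0.0809, 0.101, 0.137 and 0.154). The count of lower rows was 1 without aCM replicate 1 and 6 without aCM replicate 3. With library totals alone the all-gene calls were 3787 higher and 7489 lower, in place of 5316 and 5499.

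The 3 CSC cultures differed from each other in a subset of Hox genes, as measured by the ratio of the highest to the lowest culture. The ratio was 1.04 for Hoxb2, 1.08 for Hoxb6 and 1.28 for Hoxb7. It was 9.46 for Hoxa11 and 56.1 for Hoxa13, where culture 3 was highest and culture 2 lowest in both. In Hoxc4, Hoxc5 and Hoxc6 culture 2 was highest and culture 3 lowest. Hoxc4 was at 0.837, 1.90 and 0.532 CPM in the 3 cultures, Hoxc5 at 1.29, 1.60 and 0.325 and Hoxc6, which was not tested and is named after its values were seen, at 0.694, 1.45 and 0.0887 CPM.

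In iCM, nCM and aCM Hoxc4 ranged from 0.428 to 0.532, 0.578 to 0.741 and 0.720 to 1.19 CPM. Its call in iCM (log2 -1.16 ± 0.39, adjusted p = 0.0175) was lost without CSC replicate 2 (-0.48, adjusted p = 0.195) and without iCM replicate 3 (-1.06, adjusted p = 0.0597) and in the 2 groups alone (adjusted p = 0.0506). The values of -0.80 ± 0.38 in nCM and -0.24 ± 0.40 in aCM did not pass (adjusted p = 0.0758 and 0.589). Hoxc5 was at 0.340, 0.349 and 0.367 CPM in iCM, 0.428, 0.397 and 0.615 in nCM and 0.984, 0.582 and 0.554 in aCM, and culture 3 of CSC lay below every one of these libraries. It fell by 1.62 ± 0.44 (log2) in iCM, and its call in nCM (-1.18 ± 0.44) was lost without CSC replicate 1 or 2 or nCM replicate 1 or 2 (-1.04, -0.78, -1.10 and -1.05), with library totals and in the 2 groups alone (adjusted p = 0.0607 and 0.0666). In aCM Hoxc5 did not pass (-0.63 ± 0.46, adjusted p = 0.224). Hoxc8 was called lower in aCM from 3, 2 and 3 aCM counts against 6, 39 and 11 in CSC, most of them in culture 2. This call was lost without CSC replicate 2 (adjusted p = 0.249) or any 1 aCM library (0.0627, 0.108 and 0.0524) and in the 2 groups alone (0.0551).

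**Figure D5:**
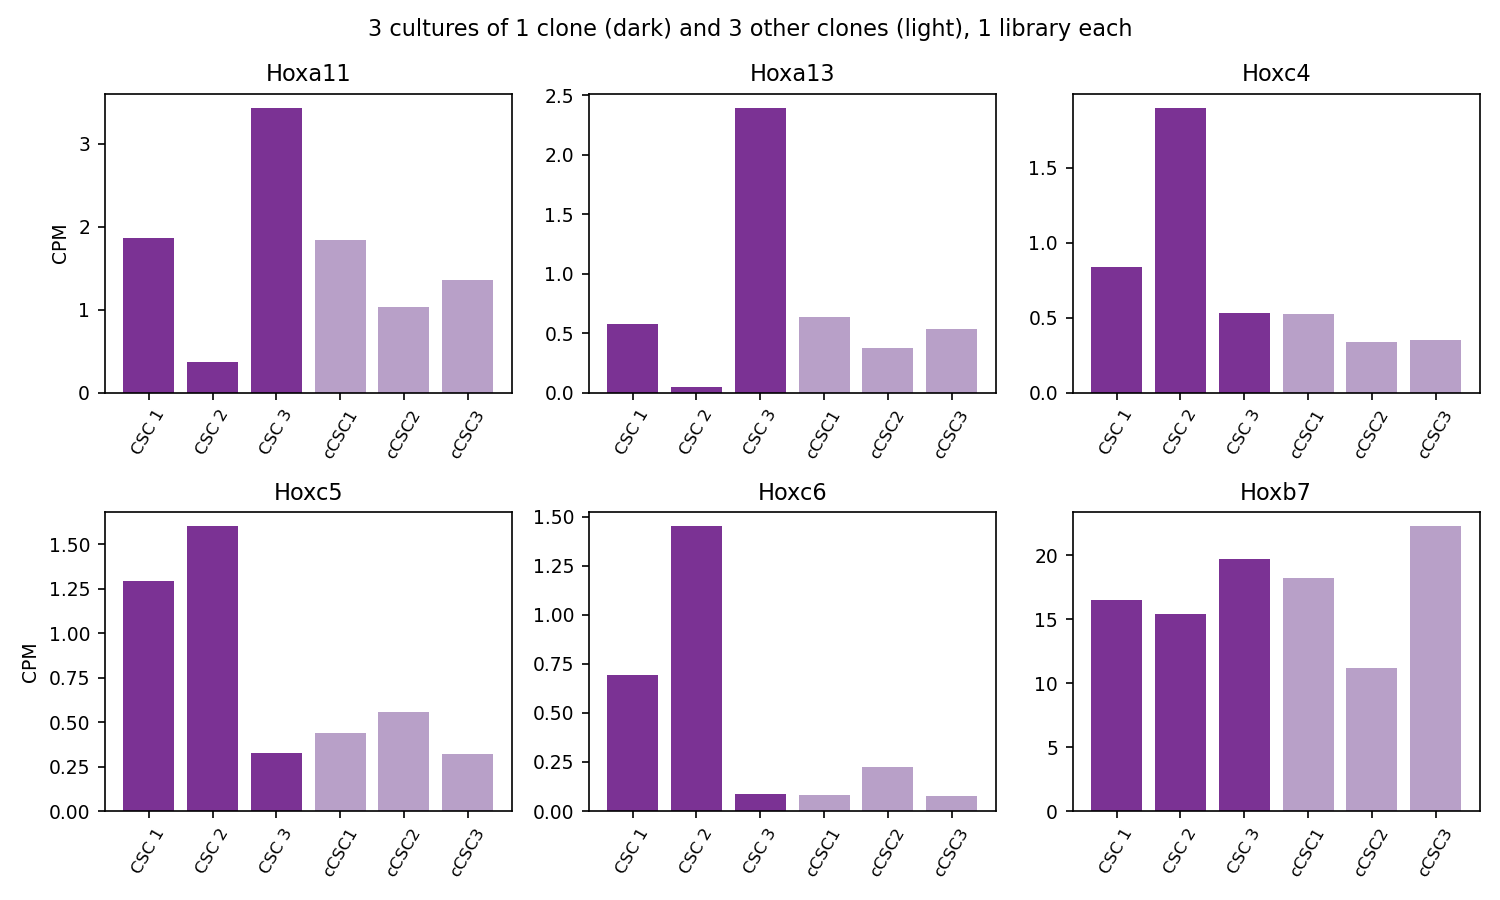
CPM of 6 Hox genes in the 3 CSC cultures of 1 clone (dark bars, TMM scaled) and in 3 other clones (light bars, scaled to their own table's total), 1 library per bar. Culture 2 is lowest for Hoxa11 and Hoxa13 and highest for Hoxc4 to Hoxc6, and Hoxb7 is above 11 CPM in all 6 libraries.

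The other clones also carried Hox transcripts. The clone table lists 28 of the 40 Hox rows, and these summed to 103, 81.8 and 96.2 CPM in cCSC1, cCSC2 and cCSC3 and to 100.2 CPM in clone 4. With 1 library per clone there is no test, the clone table was scaled separately, and the values of cCSC1 and cCSC2 were deposited in a form that is not plain counts. Hoxb7 was at 18.2, 11.2 and 22.3 CPM and Hoxd13 at 12.0, 8.51 and 10.1 CPM in the 3 clones. Hoxd8 was at 23.8, 22.5 and 14.4 CPM, against 12.6 in clone 4 of the same table. Hoxb5 was at 2.69, 1.04 and 3.33 CPM, against 4.81 in clone 4.

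Hoxb6 was at 8.37, 4.31 and 12.5 CPM in these clones, on both sides of clone 4 (7.63). Hoxa7 was at 0.213, 0.438 and 0.464 CPM, below clone 4 (0.938). Hoxc4 was at 0.522, 0.336 and 0.348 CPM and Hoxc6 at 0.0825, 0.226 and 0.0774 CPM, each below clone 4 (0.867 and 0.726). Clone 4 is here CSC culture 1 alone, and culture 3 of that clone was at 0.532 and 0.0887 CPM (TMM scaled). Hoxa11 (ENSRNOG00000007627) was at 1.83, 1.03 and 1.35 CPM and Hoxa13 at 0.638, 0.377 and 0.534 CPM, against 1.92 and 0.599 in clone 4.

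The remaining rows were low throughout. The 16 rows with counts that were below a mean of 1 CPM in every group and clone ranged from 0 to 1.45 CPM in single libraries. Of these Hoxb9 was tested and passed in no comparison. Hoxb1, Hoxb8, Hoxc6, Hoxc9, Hoxc11, Hoxc12, Hoxc13, Hoxd12 and the second Hoxa11 row (ENSRNOG00000047691) did not pass the filter. The second Hoxa6 row (ENSRNOG00000006530) and the third Hoxa9 row (ENSRNOG00000048146) were at 0 counts throughout.

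Genes around the Hox system were counted from lists. Over all genes tested 34.8% were higher and 31.2% lower than CSC in iCM, 36.7% and 35.4% in nCM and 43.2% and 34.8% in aCM, which is 66.0%, 72.1% and 78.0% in either direction, with medians of 0.08, 0.09 and 0.29 (log2). Cdx2, a caudal gene that helps to switch on central and posterior Hox genes in the embryo, was at 38.6, 53.1 and 61.2 CPM in CSC and 3.62, 2.37 and 2.75 in iCM, against 0.878, 0.953 and 0.898 in nCM and 1.35, 1.79 and 0.499 in aCM. CSC did not overlap with any other group, nor iCM with either kind of cardiomyocyte. Cdx2 fell in all 3 groups (log2 fold changes of -4.13 ± 0.28, -5.80 ± 0.32 and -5.36 ± 0.32 in iCM, nCM and aCM, adjusted p = 3.01e-08, 2.6e-09 and 3.84e-09). It ranged from 15.0 to 34.0 CPM in the 3 other clones. Of 5 tested genes of the caudal, ParaHox and Gbx families 1 rose and 2 fell in iCM, 2 rose and 2 fell in nCM and 2 rose and 3 fell in aCM, and these 3, 4 and 5 of 5 stand beside 66.0%, 72.1% and 78.0% of all genes. Gbx2 rose by 2.78 ± 0.30 and Pdx1 fell by 2.83 ± 0.73 in iCM. Pdx1 was low before this fall, at 0.243 CPM in clone 4 (CSC replicate 1), below the filter's level of 0.262 CPM, so its fold is uncertain.

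Homeobox genes of the TALE class, which include the Pbx and Meis cofactors of Hox proteins, were counted with Pbxip1, which encodes a Pbx-interacting protein without a homeodomain. Of 11 tested 6 rose and 3 fell in iCM against CSC, with a list median of 0.83 against 0.08 for all genes (log2), 5 rose and 3 fell in nCM (median 0.25 against 0.09) and 4 rose and 5 fell in aCM (median -0.05 against 0.29). These are 81.8%, 72.7% and 81.8% of the list, against 66.0%, 72.1% and 78.0% of all genes. Pknox2 rose by 5.34 ± 0.21 and Pbxip1 by 1.11 ± 0.15, and Tgif1 fell by 0.46 ± 0.13. Meis1 was at 51.8, 61.2 and 103 CPM in CSC and 41.5, 39.9 and 38.0 in iCM, against 18.9, 16.7 and 17.5 in nCM and 30.8, 28.9 and 26.8 in aCM, and the 4 groups did not overlap. Meis1 fell in all 3 groups (log2 fold changes of -0.86 ± 0.20, -2.03 ± 0.20 and -1.32 ± 0.20 in iCM, nCM and aCM).

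In the retinoic acid pathway, 17 rose and 2 fell of 19 tested genes in iCM (median 2.66, log2), 15 rose and 3 fell in nCM (median 2.25) and 14 rose and 3 fell in aCM (median 1.47). The higher genes compare with 34.8%, 36.7% and 43.2% of all genes, and the 19, 18 and 17 of 19 called in either direction with 66.0%, 72.1% and 78.0%. The enzyme genes Aldh1a2, which makes retinoic acid in the embryo, and Aldh1a1 rose by 6.78 ± 0.31 and 4.24 ± 0.33 in iCM. Among the receptors Rxrg rose by 4.96 ± 0.22 and Rarb by 4.92 ± 0.20, and Rarg fell by 0.91 ± 0.12 in iCM. Rarb was at 35.3, 40.4 and 18.8 CPM in cCSC1, cCSC2 and cCSC3, against 0.560 in clone 4 and 13.1 ± 1.03 in iCM. Its rise is thus a difference from clone 4 and not from the other clones. Rxrg was at 0.354, 0.646 and 0.375 CPM in the same 3 clones, against 0.259 in clone 4.

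Of 13 listed activating chromatin regulators of Hox genes 9 were found by symbol and tested. Kmt2a, Kmt2b, Kmt2c and Kmt2d were not found, so the counts do not cover them. Of the 9 tested genes 3 rose and 6 fell in iCM against CSC (median -0.96, log2), 2 rose and 6 fell in nCM and 3 rose and 6 fell in aCM. Called in either direction were 9, 8 and 9 of 9, against 66.0%, 72.1% and 78.0% of all genes, and the all-gene median in iCM was 0.08. The demethylase gene Kdm6b rose by 2.02 ± 0.25 in iCM, while the trithorax complex gene Wdr5 fell by 1.37 ± 0.11, Dpy30 by 1.06 ± 0.17 and Psip1 by 0.99 ± 0.21. Of 20 Polycomb genes 8 rose and 7 fell in iCM (median 0.03), 4 rose and 9 fell in nCM and 6 rose and 11 fell in aCM, together 75.0%, 65.0% and 85.0% of the list, against the same all-gene shares. The methyltransferase gene Ezh2 went from 123 ± 19.4 CPM in CSC to 39.8 ± 3.02 in iCM, its partner gene Phf19 fell by 2.50 ± 0.19 (log2), and Jarid2 and Cbx7 rose by 2.15 ± 0.14 and 1.82 ± 0.26. The clones differed in Cbx7, which was at 1.66, 18.1 and 2.81 CPM in cCSC1, cCSC2 and cCSC3, against 2.60 in clone 4.

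Among 12 tested genes that flank the clusters 3 rose and 6 fell in iCM (median -0.29, log2), 3 rose and 7 fell in nCM and 4 rose and 5 fell in aCM. These 75.0%, 83.3% and 75.0% lie beside 66.0%, 72.1% and 78.0% of all genes. Near the A cluster, Skap2 and Snx10 fell by 0.96 ± 0.15 and 2.10 ± 0.17 in iCM, and Hibadh rose by 0.67 ± 0.11 there and by 1.51 ± 0.11 in aCM and fell by 1.23 ± 0.11 in nCM. Skap1, beside the B cluster, rose by 2.37 ± 0.39 in iCM, by 3.13 ± 0.38 in nCM and by 3.20 ± 0.40 in aCM. It was at 0.0741 CPM in clone 4 (CSC replicate 1), where 3 counts are 0.0718 CPM, against 0.806, 1.26 and 0.462 CPM in cCSC1, cCSC2 and cCSC3.

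Of 44 tested rows of other positional transcription factors 19 rose and 11 fell in iCM against CSC (median 0.36, log2), 19 rose and 14 fell in nCM and 18 rose and 16 fell in aCM. The called shares of 68.2%, 75.0% and 77.3% compare with 66.0%, 72.1% and 78.0% of all genes. Tbx20, a heart development gene, went from 0.401 ± 0.263 CPM in CSC to 104 ± 12.1 in iCM (log2 7.94 ± 0.28). Tbx5, also a heart gene, rose by 5.96 ± 0.21, Meox2 by 5.75 ± 0.34 and the ventricular gene Irx4 by 5.63 ± 0.28. These folds are measured against cultures of clone 4. Tbx5 was at 0.111 CPM in clone 4, against 0.973, 0.803 and 0.683 in cCSC1, cCSC2 and cCSC3. Meox2 was at 0.346 CPM in clone 4, against 3.30, 2.50 and 0.271 in the same clones.

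Cell type markers moved with the groups as well, and their part in the Hox results was not tested. A summed level rests mostly on its most abundant genes, so the number of genes called is given with it. Over all genes tested, 34.8% were higher and 31.2% lower than CSC in iCM, 36.7% and 35.4% in nCM and 43.2% and 34.8% in aCM. In either direction these are 66.0%, 72.1% and 78.0%. The called share was below these for fibroblast genes in nCM (70.0%) and erythroid genes in aCM (40.0%). It was also below for skeletal muscle genes in nCM (14.3%) and aCM (42.9%). The cardiomyocyte list (10 of 11 found) summed to 5.38 to 53.0 CPM in CSC and 7277 to 8327 in iCM, against 2819 to 5420.1 in nCM and 95933 to 124799 in aCM, and all 10 genes were above 3 counts in every library of the last 3 groups. Of these genes 10 were higher and 0 lower than in CSC in iCM, 10 and 0 in nCM and 10 and 0 in aCM. The fibroblast list (10 of 10) summed to 5652 to 6287 CPM in CSC and 20609 to 22861 in iCM, against 19910.5 to 24910.0 in nCM and 2893 to 5574 in aCM. Of its genes 10 were higher and 0 lower than in CSC in iCM, 7 and 0 in nCM and 6 and 3 in aCM, while the most abundant in CSC, both collagen genes and named after their values were seen, fell in aCM: Col1a1 (from 2433 ± 297 to 351 ± 76.4 CPM) and Col1a2 (from 2523 ± 299.8 to 542 ± 138). The endothelial list (10 of 10) summed to 68.7 to 88.3 CPM in CSC and 2263 to 2644 in iCM, against 3303 to 3974 in nCM and 1623 to 2391 in aCM, and 10 were higher and 0 lower than in CSC in iCM, 10 and 0 in nCM and 10 and 0 in aCM.

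The smooth muscle and pericyte list (8 of 9) summed to 250.3 to 286 CPM in CSC and 1142 to 1683 in iCM, against 1099 to 1189 in nCM and 1860.1 to 2473 in aCM, and 7 were higher and 1 lower than in CSC in iCM, 7 and 1 in nCM and 7 and 0 in aCM. The epicardial and mesothelial list (8 of 8) summed to 1405 to 1967 CPM in CSC and 244 to 289 in iCM, against 195 to 220.1 in nCM and 143 to 259 in aCM. The high CSC sum was almost all Krt8, a keratin gene likewise named after its values were seen (from 1657 ± 294 CPM in CSC to 70.7 ± 9.36 in iCM), while most of the list went the other way: 6 were higher and 1 lower than in CSC in iCM, 6 and 1 in nCM and 6 and 2 in aCM. Skeletal muscle genes (8 of 8) summed to 5.44 to 6.58 CPM in CSC and 830.4 to 1807 in iCM, against 214 to 472 in nCM and 262 to 627 in aCM. Of 7 tested 7 were higher and 0 lower than in CSC in iCM, 1 and 0 in nCM and 3 and 0 in aCM, and the sums in nCM and aCM were mostly Acta1, an actin gene that the heart also expresses (352 ± 132 and 463 ± 189.9 CPM). Leukocyte genes (9 of 9) summed to 4.41 to 7.08 CPM in CSC and 93.3 to 109 in iCM, against 264 to 396 in nCM and 95.7 to 142 in aCM, and 9 were higher and 0 lower than in CSC in iCM, 9 and 0 in nCM and 8 and 0 in aCM. Erythroid genes (5 of 6) summed to 22.7 to 163 CPM in CSC and 16384 to 19579.7 in iCM, against 23396 to 35364 in nCM and 25.7 to 93.6 in aCM, and 4 were higher and 1 lower than in CSC in iCM, 4 and 0 in nCM and 1 and 1 in aCM. Neural and glial genes (8 of 8) summed to 25.1 to 85.0 CPM in CSC and 76.7 to 105 in iCM, against 22.3 to 31.7 in nCM and 56.3 to 67.4 in aCM, and of 7 tested 5 were higher and 1 lower than in CSC in iCM, 4 and 2 in nCM and 4 and 2 in aCM.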

How the data were processed

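For 12 libraries the authors deposited estimated counts per Ensembl gene, which need not be whole. Beside them the authors deposited log2 values which, as read from the values, were divided by 1 factor per library and centred on each gene's median, and these served here only to recover the library factors. In the clone table the authors deposited estimated counts for clones 3 and 4, while the columns of clones 1 and 2 hold a signal whose making is not stated. DESeq is named in the submitters' processing notes. The sources used here do not give the aligner, counter, genome build or strandedness, so overlapping, antisense or near-identical genes are uncertain. A row without a gene ID (1 row, total count 0) was left out.

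Estimated counts were rounded, filtered with filterByExpr at a minimum count of 10 (17242 genes kept, 9034 removed), scaled by TMM and tested in 1 fit of all 12 libraries with edgeR's quasi-likelihood test, with Benjamini-Hochberg adjustment over all genes at 0.05. CPM of the clones is relative to the total of each column, without a test. Where 1 group had 10 or fewer counts and the other 20 or more, ratios of counts with exact counting intervals are used. Alternatives were RLE, library totals or the authors' factors, a filter of 30 or none, DESeq2, 2 groups alone, a replicate block and leaving out each library. The procedure was tested on simulated data in which far fewer genes differed than here, and in iCM alone, so that test does not cover the scaling. The tools were edgeR 4.0.16 and DESeq2 1.42.0 in R 4.3.3, with Python 3.11.15.

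For the groups other than CSC no label tells of separate cultures or animals, so p-values measure the spread between libraries, which may be purely technical. Replicates differed by more than counting noise (the closest had a median chi-square per gene of 1.72), and each was counted once. The Hox members, gene lists and marker lists were chosen with earlier results of these data known. Hox rows with a mean of at least 1 CPM in a group, or 1 CPM in a clone, are given in every library, the others by range. Up to 4 members per list are named by the largest called fold change, with Meis1, Rarb and Rarg added for their part in Hox control. Hoxa7, Hoxc6, Hoxc8, Hoxc10 and Hoxd1 are described in addition, after their values were seen. Some genes of the Hox set and of the lists are counted but not reported here by name. Promoter sequences are from RefSeq (GRCr8), matched by symbol.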

Additional observations from a re-analysis of the deposited data

How the results depend on the processing

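None of the 217 single-gene results changed direction under the alternatives run. Of 279 values of the main counts and sums under alternatives, 250 stayed within the limits set for counts and sums, and the others follow. Of 3012 values of these 217 results 2932 kept their call, 63 lost it (16 results) and 17 gained it (7 results). Without CSC replicate 1, 1 Hox row was higher in iCM than in CSC (range 0 to 1). Rows higher in nCM than in CSC numbered 1 with the authors' factors, 0 with the stricter filter, 0 in DESeq2 and 0 to 2 with a library left out. Rows higher in aCM than in CSC numbered 0 with the stricter filter and 1 to 2 with a library left out. Rows lower in iCM than in nCM numbered 0 with the stricter filter, in the 2 groups alone and in DESeq2, and 0 to 1 with a library left out. Rows lower in iCM than in aCM numbered 0 with the stricter filter and 3 in the 2 groups alone. Rows lower in aCM than in nCM ran from 1 to 6 with a library left out, and all genes called in iCM against nCM from 3486 to 5056. The summed Hox level was 104 CPM in CSC with RLE and 107 with the authors' factors, 18.1 in nCM with library totals, and 110 in cCSC1 and 108 in cCSC3 with TMM over the clone table. Library totals moved the all-gene median (log2) of aCM against nCM from -0.01 to -0.35, of iCM against aCM from 0.00 to 0.28, of nCM against CSC from 0.09 to 0.26, of iCM against CSC from 0.08 to 0.18 and of aCM against CSC from 0.29 to 0.11. The authors' factors moved it against CSC to -0.07 in iCM, -0.06 in nCM and 0.07 in aCM. The stricter filter tests fewer genes. The cause of the other changes was not tested.

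Libraries with the same replicate number were not more alike than others. Their deviations from the group means correlated at -0.199 to 0.0737 (18 pairs), and those with different numbers at -0.097 to 0.181 (36 pairs). With 3 libraries per group this check cannot exclude a shared batch. With the replicate number as a block, 0 rows were lower in iCM than in nCM, and the all-gene calls there were 2832 higher and 1887 lower. The depth of aCM, where 3 counts are 0.134 to 0.166 CPM, limits the lowest Hox genes most.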

Other observations

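Several positional transcription factors outside the Hox clusters, named here after their values were seen, were also highest in CSC, lower in iCM and lower still in nCM. They were picked for this from 44 tested rows, of which 19 rose and 11 fell in iCM, so they do not stand for the list. Tbx15, a limb and skeletal patterning gene, was at 7.32, 9.26 and 9.02 CPM in CSC and 3.49, 3.20 and 4.22 in iCM, against 0.193, 0.238 and 0.213 in nCM and 0.104, 0.492 and 0.665 in aCM. It fell in all 3 groups (log2 fold changes of -1.23 ± 0.27, -5.30 ± 0.35 and -4.34 ± 0.35 in iCM, nCM and aCM, edgeR quasi-likelihood test, adjusted p = 0.00118, 1.83e-08 and 8.27e-08), and the groups overlapped only between nCM and aCM. Shox2, which in the mouse heart marks the sinus node region, went from 15.3 ± 1.54 CPM (SD, n = 3) in CSC to 5.89 ± 1.33 in iCM, 0.882 ± 0.0708 in nCM and 1.17 ± 0.242 in aCM, without overlap between any pair of groups. It fell in all 3 groups (log2 fold changes of -1.37 ± 0.19, -4.11 ± 0.22 and -3.70 ± 0.22 in iCM, nCM and aCM). Irx3 fell by 1.87 ± 0.23, 3.85 ± 0.25 and 2.60 ± 0.24 in the same order. Prrx1, a mesenchymal limb gene, went from 86.6 ± 10.3 CPM in CSC to 29.7 ± 3.89 in iCM, 14.8 ± 2.16 in nCM and 8.69 ± 1.36 in aCM. Foxf1 went from 6.77 ± 2.53 CPM to 2.29 ± 0.322, 0.777 ± 0.211 and 0.571 ± 0.0998.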
